A study of Mus musculus with 4 samples.

Results

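The expression of 40 genes for chemokines, inflammatory cytokines, the Il6 family with its receptors, and the NF-kB transcription factors with their feedback regulators was examined in reprogramming mouse fibroblasts. The genes were taken by symbol from the deposited table, which lists 22369 genes, and all 40 were found. The cells were OG2MEF, mouse embryonic fibroblasts with a green fluorescent reporter of Oct4, on day 9 after retroviral delivery of factors. The protocol lists Sox2 and Klf4 viruses with a further virus for OCT4, SOX17, SOX17-V118M or GFP, and does not give the mix of each library. By label 2 libraries are wild-type SOX17 and 2 are SOX17-V118M, a missense variant of this SOX factor. Sox17 was at 3484 and 2880 in wild type and at 3016 and 2396 in V118M, and Sox2 was at 2 to 4 in all 4 libraries. Pou5f1, the gene of OCT4, was at 61186, the highest value of the table, in all 4 libraries. Klf4 was at 29444 and 29444 in wild type and at 29444 and 17589 in V118M. The table cannot show the variant. Whether the replicates of a group came from separate transductions is not stated, so the spread between them may be technical. All cultures were in embryonic stem cell medium that contained serum, vitamin C and added LIF protein, so the pathway downstream of LIF was supplied with ligand in both groups. No fibroblast library without SOX17 was analysed here.

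Chemokines are small secreted proteins that attract leukocytes through receptors on the target cell, and fibroblasts make many of them when stimulated. Binding of interleukin 1 or tumour necrosis factor to its receptor frees NF-kB dimers from their inhibitors, and these dimers switch on chemokine and cytokine genes together with the genes of their own inhibitors. Cytokines of the Il6 family, LIF among them, signal through the shared receptor chain Il6st and the factor Stat3, whose target Socs3 closes a feedback loop, and LIF maintains mouse pluripotent cells in culture.

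The values are normalized scores in whole numbers, described here as normalized values. Their distribution is nearly the same in every library, with totals of 12855482 to 12859613 and a median of 76, so the sequencing depth is unknown. Whether values are corrected for gene length is not stated, so they are compared between libraries and not between genes. V118M replicate 2 was unlike the rest. It correlated with them at a Pearson's r of 0.954 to 0.964 over the 12661 genes whose log2 values averaged 5 or more, and the other 3 libraries correlated at 0.986 to 0.990 among themselves. Results are therefore given for each library. RNA was measured in bulk, so fewer cells of a type and less RNA per cell cannot be told apart.

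Promoter sequences of members are shown because NF-kB binds a recognisable element at many genes of this class. RefSeq windows of GRCm38.p6 holding the 250 bases before a start site were matched for 30 of the 40 genes, taking the window nearest to the start site in the table. The letters searched were GGGANNNNCC on either strand, which reads GGNNNNTCCC on the other, and overlapping matches were counted as a single site. A match was present in 14 of the 30 windows, or 46.7%, and in 17.6% of all 32851 windows of this length. No limit was set on the distance to the start site in the table. It was 13811 bases for Lifr and 656 for Osmr, which both count as windows with a match. The 4 genes with the lowest limma p among members detected in both groups are printed before 2 genes with known NF-kB elements, Nfkbia and Cxcl10. Capitals mark the matches and each run is read 5′ to 3′.

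Il6, chr5:30012864-30013113, plus strand: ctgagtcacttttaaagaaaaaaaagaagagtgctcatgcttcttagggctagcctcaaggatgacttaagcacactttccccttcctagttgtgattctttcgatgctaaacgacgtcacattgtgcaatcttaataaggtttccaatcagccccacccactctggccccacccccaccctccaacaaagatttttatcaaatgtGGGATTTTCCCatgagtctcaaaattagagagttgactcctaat
Cxcl12, chr6:117168285-117168534, plus strand: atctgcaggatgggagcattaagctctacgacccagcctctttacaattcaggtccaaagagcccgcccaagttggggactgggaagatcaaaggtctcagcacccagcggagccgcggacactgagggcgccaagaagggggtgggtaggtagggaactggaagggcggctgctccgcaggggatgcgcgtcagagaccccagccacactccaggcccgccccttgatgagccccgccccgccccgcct
Il1r1, chr1:40224830-40225079, plus strand: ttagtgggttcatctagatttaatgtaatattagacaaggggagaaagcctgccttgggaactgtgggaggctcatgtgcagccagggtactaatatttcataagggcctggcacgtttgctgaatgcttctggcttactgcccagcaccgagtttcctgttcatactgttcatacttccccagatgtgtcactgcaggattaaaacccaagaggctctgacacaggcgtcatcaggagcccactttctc
Il1rl1, chr1:40429320-40429569, plus strand: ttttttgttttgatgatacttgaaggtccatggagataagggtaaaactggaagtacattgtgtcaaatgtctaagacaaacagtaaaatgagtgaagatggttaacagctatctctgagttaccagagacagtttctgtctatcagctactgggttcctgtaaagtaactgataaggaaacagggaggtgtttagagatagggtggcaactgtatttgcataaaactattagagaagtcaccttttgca
Nfkbia, chr12:55492648-55492897, minus strand: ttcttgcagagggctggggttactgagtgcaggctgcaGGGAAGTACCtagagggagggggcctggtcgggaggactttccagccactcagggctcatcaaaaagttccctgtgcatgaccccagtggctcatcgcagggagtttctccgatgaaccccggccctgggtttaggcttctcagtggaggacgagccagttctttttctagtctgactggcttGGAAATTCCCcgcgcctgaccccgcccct
Cxcl10, chr5:92348890-92349139, minus strand: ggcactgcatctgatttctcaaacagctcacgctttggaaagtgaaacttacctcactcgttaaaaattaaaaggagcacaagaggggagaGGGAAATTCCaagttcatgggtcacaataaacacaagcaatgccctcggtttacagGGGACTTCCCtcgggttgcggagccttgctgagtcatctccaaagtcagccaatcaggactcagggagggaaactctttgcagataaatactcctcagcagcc

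The Il6 window held overlapping matches on both strands that begin at position -44 from the start site. Those of Cxcl12, Il1r1 and Il1rl1 held none of these letters. Nfkbia had matches at -212 and -29, and Cxcl10 at -159 and -103. The neighbouring chemokine genes Cxcl1 and Cxcl2, and Ccl20, are shown over 30 bases around a match. In Cxcl1 and Cxcl2 the capitals spell the same element.

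Cxcl1, chr5:90891164-90891193, plus strand: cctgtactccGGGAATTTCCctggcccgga
Cxcl2, chr5:90903792-90903821, plus strand: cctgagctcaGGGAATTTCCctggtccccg
Ccl20, chr1:83116675-83116704, plus strand: taatcaatggGGGAAAACCCcgggtgagaa

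The comparison of V118M with wild type asks how the variant alters expression in cells under reprogramming. Of the 40 genes, 39 could be tested, and Csf3 was listed at 0 in every library. None passed an adjusted p of 0.05 in limma, and neither did any of the 19547 genes tested over the whole table (0%). Every tested member had a limma adjusted p of 0.951 or above, so the fold changes below are given with their standard errors (SE) on the log2(value + 1) scale and are not repeated with a p. At an unadjusted p under 0.05 there were 5 members, Cxcl12, Il1rl1, Il1r1, Il6 and Tnf, all higher in V118M. That is 12.8% of the members against a background of 4.01% of all genes tested. The groups did not overlap, with both V118M values above both wild-type values, in 14 members, or 35.9%, against 13.2% of all genes tested. They did not overlap in the other direction in 7 members, or 17.9%, against 14.8%. Among the 28 members whose log2 values averaged 5 or more, groups were apart in either direction in 16, or 57.1%, against 31.2% of all genes at that level. Over the tested members 27 were higher (69.2%, against 49.2% of all genes tested), 11 lower (28.2%, against 48.2%) and 1, Csf2, equal. Their median log2 fold change was 0.205, beside a median of 0 over all genes tested. Without V118M replicate 2 the median was 0.101. The members were chosen with earlier results of these data known, so these shares do not test the set. The number of members at an unadjusted p under 0.05 moved with the whole table in fits of 3 libraries. It was 1 of 39 without wild-type replicate 1 and 0 of 38 without wild-type replicate 2, against 1.16% and 1.42% of all genes. Without V118M replicate 1 it was 15 of 37, against 26.8% of all genes, and without V118M replicate 2 it was 10 of 38, against 12.0%.

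**Figure D1:**
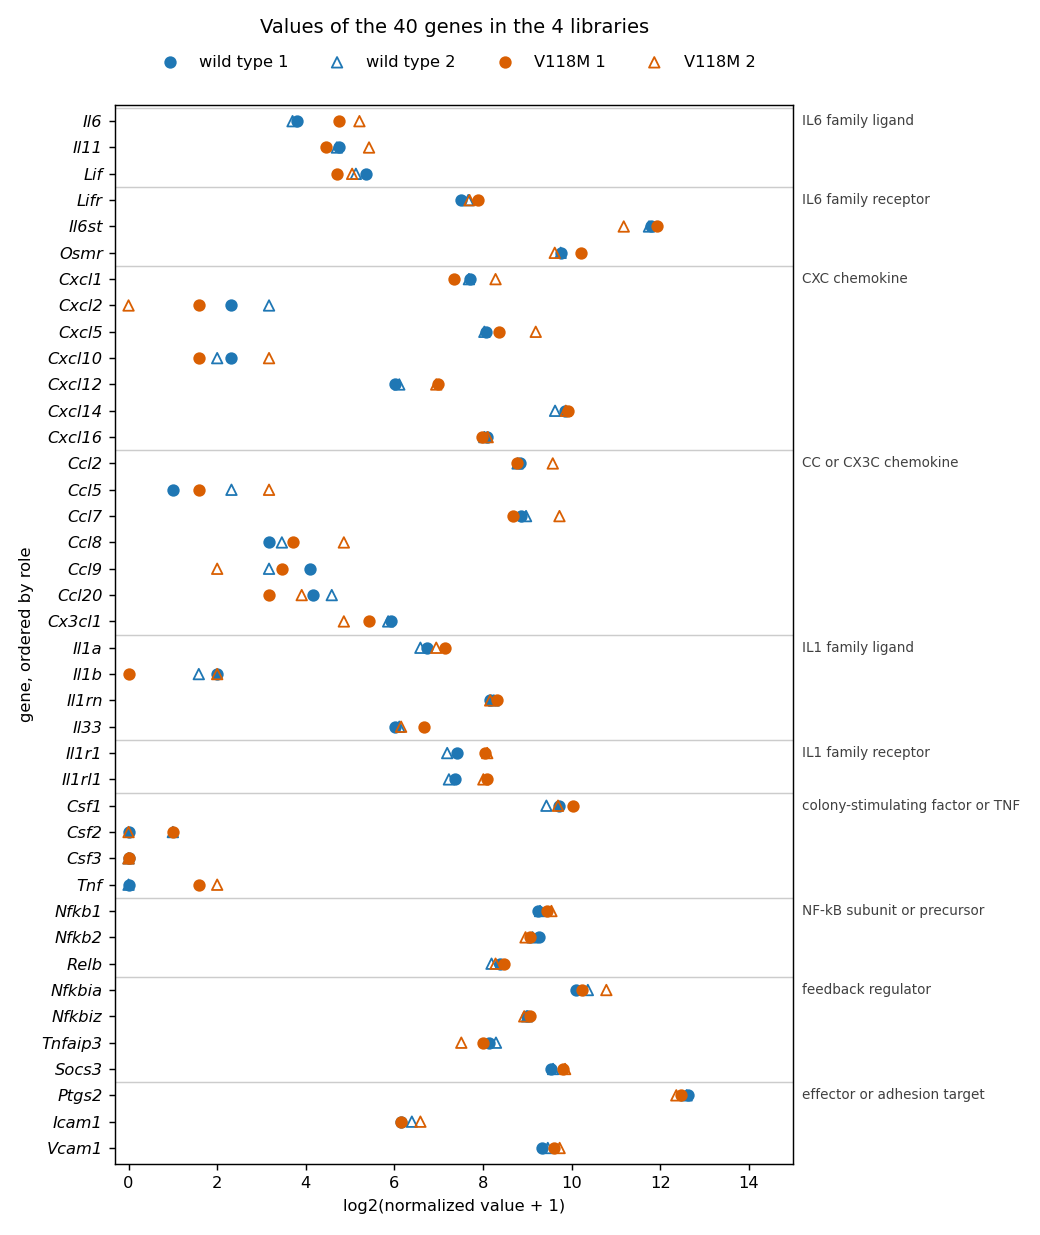
Normalized values of the 40 genes on a log2(value + 1) scale (horizontal axis), grouped by role (vertical axis), with 1 symbol for each of the 2 wild-type (blue) and 2 V118M (orange) libraries. Il6, Cxcl12, Il1r1 and Il1rl1 have both V118M symbols to the right of both wild-type symbols, while for Ccl2, Ccl7 and Cxcl1 only V118M replicate 2 lies to the right.

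Among the ligands of the Il6 family, Il6 differed most between the groups. Il6 (chromosome 5, 30013114 to 30019981), the founding cytokine of the family and an NF-kB target, stood at 13 and 12 in wild type and at 26 and 36 in V118M. Both V118M values were clearly above either wild-type value, though all were below the table's median of 76. The difference was 1.23 on the log2 scale (SE 0.38). Il11, a related cytokine made by stromal cells, was at 26 and 25 against 21 and 42, with the groups overlapping. Lif, the gene of the cytokine that was also added to the medium, was at 40 and 34 against 25 and 32. Its V118M values were both below the wild-type ones, by 0.37 on the log2 scale with an SE of 0.32.

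Of the receptor chains of this family, only Lifr had both V118M values above both wild-type values, and by little. Il6st, the signal-transducing chain used by every ligand named here, was at 3550 and 3426 in wild type and at 3873 and 2308 in V118M. Osmr, the oncostatin M receptor chain, was at 862 and 860 against 1175 and 784. In both genes V118M replicate 1 was the highest library and V118M replicate 2 the lowest. Lifr, the chain that binds LIF, was at 181 and 202 against 236 and 206, a log2 fold change of 0.21 with an SE of 0.18. Socs3, the feedback inhibitor induced by Stat3, was at 742 and 764 against 888 and 922. Both V118M libraries exceeded both wild-type libraries, and the difference was 0.27 on the log2 scale (SE 0.14).

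Both member receptors of the interleukin 1 family, Il1r1 and Il1rl1, were higher in both V118M libraries. Il1r1, the signalling receptor for interleukin 1 (chromosome 1, 40225080 to 40317257), was at 170 and 145 in wild type and at 262 and 272 in V118M. Il1rl1, the receptor for interleukin 33 (chromosome 1, 40429570 to 40465415), was at 164 and 149 against 269 and 256. In each gene the V118M values lay close together and well above the wild-type pair. The log2 fold changes were 0.76 for Il1r1 (SE 0.18) and 0.74 for Il1rl1 (SE 0.17). When each library was left out in turn they ranged from 0.65 to 0.88 for Il1r1 and from 0.68 to 0.81 for Il1rl1. These genes lie 112.3 kb apart on the same strand. Il1rl2, the receptor gene between them, was looked at after its neighbours' values were seen, and was at 50 and 42 against 72 and 68 (log2 fold change 0.60, SE 0.26).

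The ligands and the antagonist of these receptors varied in direction. Il1a, an interleukin 1 made by fibroblasts and keratinocytes, was at 106 and 95 in wild type and at 140 and 122 in V118M, so the groups were apart (log2 fold change 0.38, SE 0.21). Il33, an alarmin released from nuclei of damaged cells, was at 64 and 68 against 100 and 70. Its difference rested on V118M replicate 1, since replicate 2 was 0.08 above the wild-type mean on the log2 scale. Il1rn, the antagonist that blocks Il1r1, was at 283 and 302 against 318 and 285, and overlapped. Il1b, the interleukin 1 of activated macrophages, was low throughout, at 3 and 2 against 0 and 3, and overlapped. Il1rap, the accessory chain that both receptors need, is no member and was at 382 and 380 against 362 and 337, lower in both V118M libraries.

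Among the CXC chemokines, Cxcl12 gave the lowest p-value of all 40 genes. Cxcl12 (chromosome 6, 117168535 to 117181367), which holds stem cells and leukocytes in their niches, was at 64 and 68 in wild type and at 126 and 122 in V118M. Values within each group nearly coincided, and the groups did not overlap. The difference was 0.90 on the log2 scale (SE 0.21), and it ranged from 0.86 to 0.94 when each library was left out in turn. Its receptors did not follow this pattern. Cxcr4 was at 32 and 28 against 34 and 30, and the scavenger Ackr3 was at 1756 and 1772 against 1345 and 1595. These receptors were singled out after their values were seen.

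Cxcl5, a neutrophil attractant made by epithelial and stromal cells (chromosome 5, 90759360 to 90761624), was at 266 and 260 in wild type and at 328 and 582 in V118M. The groups were apart, but the V118M libraries differed from each other more than replicate 1 differed from wild type. The log2 fold change of 0.73 (SE 0.30) was 0.32 when V118M replicate 2 was left out and 1.14 when replicate 1 was. Cxcl1, a close relative that also binds the receptor Cxcr2, was at 208 and 204 against 162 and 310, so V118M held both the lowest and the highest value. Cxcl2, the next gene along the chromosome at a distance of 10.8 kb, was at 4 and 8 against 2 and 0, where differences are of a few units. Its log2 fold change of -1.95 (SE 0.77) depended on the pseudocount, and was -3.65 with 0.1 and -0.87 with 5. Without V118M replicate 2 it was -1.16. The chemokine genes between Cxcl5 and Cxcl1 were also looked at after these values were seen. Ppbp was at 28 and 28 against 26 and 34, Cxcl3 at 8 and 8 against 8 and 12, and Pf4 at 0 and 0 against 0 and 1. None of them had both V118M values above both wild-type values, though V118M replicate 2 was the highest library in each.

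The other CXC chemokines gave no separation of that size. Cxcl14, a chemokine of skin and fibroblasts, was at 917 and 788 against 964 and 932. Cxcl16, a membrane-bound chemokine, was at 270 and 260 against 251 and 274. The log2 fold changes were 0.16 and -0.02. Cxcl10, an interferon-induced attractant of T cells, was close to the bottom of the scale, at 4 and 3 against 2 and 8.

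Ccl2 and Ccl7, CC chemokines of fibroblasts, were high in V118M replicate 2 alone. Ccl2, the main attractant of monocytes (chromosome 11, 82035571 to 82037453), was at 454 and 438 in wild type and at 432 and 760 in V118M. Ccl7, which lies 8.3 kb from it and acts on overlapping receptors, was at 460 and 500 against 410 and 844. For both genes V118M replicate 1 was the lowest of the 4 libraries and replicate 2 the highest. Ccl8, a further monocyte attractant in the same cluster, was at 8 and 10 against 12 and 28 (log2 fold change 0.97, SE 0.55), and its log2 fold change was 0.39 without V118M replicate 2. The chemokine genes between Ccl7 and Ccl8 were added after these values were seen. Ccl11, the eotaxin gene, was at 8 and 6 against 8 and 32, and Ccl12 was at 2 and 0 against 0 and 0. V118M replicate 2 was the highest library in each of these genes but Ccl12.

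The remaining CC chemokines and the CX3C chemokine were low or lower in V118M. Cx3cl1, a membrane-anchored chemokine also called fractalkine (chromosome 8, 94772009 to 94782427), was at 60 and 57 in wild type and at 42 and 28 in V118M. The difference was -0.75 on the log2 scale (SE 0.32), and it was -0.47 when V118M replicate 2 was left out and -1.04 when replicate 1 was. Ccl20, the ligand of Ccr6 and an NF-kB target in epithelia, was at 17 and 23 against 8 and 14 (log2 fold change -0.84, SE 0.47), and its log2 fold change was -0.47 without V118M replicate 1. Both genes had V118M values below either wild-type value. Ccl9, a chemokine of myeloid cells, was at 16 and 8 against 10 and 3. Ccl5, an interferon-responsive and NF-kB-responsive attractant of T cells, was at 1 and 4 against 2 and 8.

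**Figure D2:**
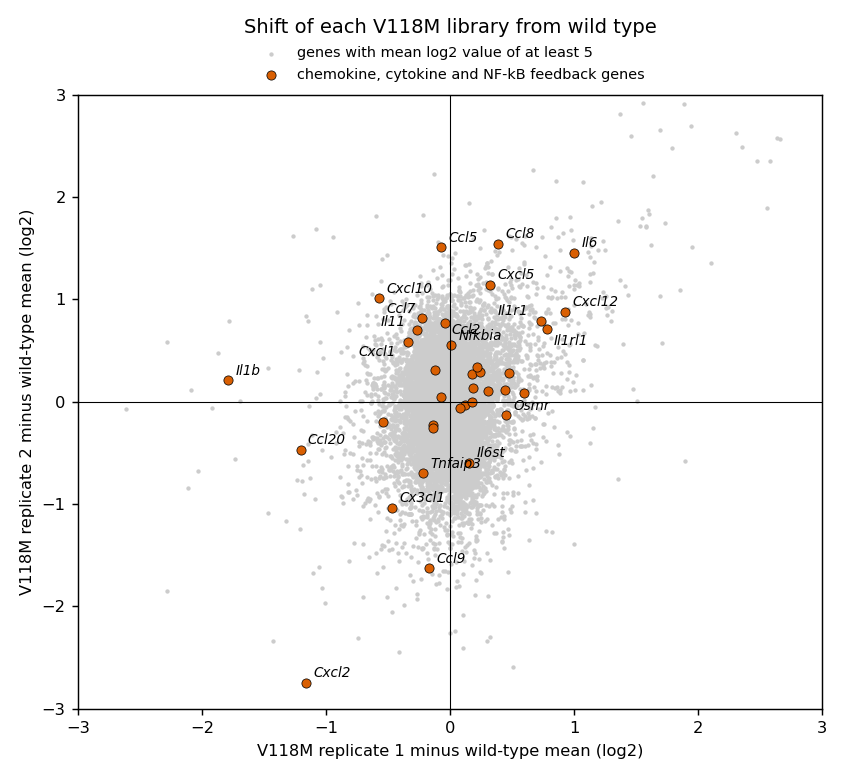
Difference from the wild-type mean in V118M replicate 1 (horizontal axis) and V118M replicate 2 (vertical axis), log2(value + 1) scale, for 37 of the genes (orange; Csf2, Csf3 and Tnf left out) over the genes whose log2 values averaged 5 or more (grey; 20 lie outside the axes). Il6, Cxcl12, Il1r1 and Il1rl1 lie near the diagonal, whereas Ccl2, Ccl7, Cxcl1 and Il11 lie above 0 on the vertical axis only.

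The growth factors of myeloid cells and Tnf were mostly at the bottom of the table. Csf1, the macrophage growth factor that fibroblasts make constitutively, was at 844 and 688 in wild type and at 1037 and 825 in V118M, and overlapped. Csf2 was at 0 and 1 against 1 and 0. Csf3 was listed at 0 in all 4 libraries. Tnf, a classic trigger of NF-kB signalling, was listed at 0 in each wild-type library and had values of 2 and 3 in V118M, so no fold is given. Its place among the 5 members at an unadjusted p under 0.05 rests on these few units.

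The subunits of NF-kB differed little between the groups, in opposite directions. Nfkb1, the precursor of the canonical DNA-binding subunit, was at 607 and 623 in wild type and at 694 and 744 in V118M (log2 fold change 0.22, SE 0.14). Nfkb2, the precursor of the non-canonical subunit, was at 610 and 554 against 528 and 496 (log2 fold change -0.18, SE 0.15). In each case the groups were apart by a small margin. Relb, the partner of the processed Nfkb2 product, was at 333 and 291 against 352 and 310 and overlapped.

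The feedback regulators stood on different sides of wild type. Nfkbia, the inhibitor that NF-kB induces to shut itself off, was at 1092 and 1316 in wild type and at 1206 and 1758 in V118M, with only replicate 2 above the wild-type range. Tnfaip3, a ubiquitin-editing enzyme that ends NF-kB signalling, was at 278 and 312 against 253 and 181. Both V118M values of Tnfaip3 lay below both wild-type values (log2 fold change -0.46, SE 0.22). Without V118M replicate 2 its difference was -0.22. Nfkbiz, a nuclear co-regulator needed for induction of Il6, was at 504 and 508 against 535 and 486.

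Among effectors, Ptgs2, the inducible prostaglandin synthase, was at 6354 and 6172 in wild type and at 5682 and 5252 in V118M, lower by a small margin in both V118M libraries (log2 fold change -0.20, SE 0.15). Vcam1, an adhesion molecule for leukocytes, was at 639 and 703 against 778 and 846 (log2 fold change 0.28, SE 0.15). Icam1, the adhesion gene most often used as an NF-kB readout, was at 70 and 83 against 70 and 95 and overlapped.

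Transcript length was compared with the deviation of V118M replicate 2, since the members' transcripts range from 511 bases for Ccl8 to 9655 for Lifr. Over genes whose log2 values averaged 5 or more, the difference of V118M replicate 2 from the mean of the other libraries had a Spearman's rho of -0.458 with transcript length, a description across genes of 1 library. The same rho was 0.39 for wild-type replicate 1, 0.08 for wild-type replicate 2 and 0.38 for V118M replicate 1. These are not independent of it, since each difference is taken from a mean that includes the other libraries. Over the 28 members at that level rho was -0.652 for V118M replicate 2, and 0.385, 0.415 and 0.289 for the others in the same order. The highest differences in V118M replicate 2 were those of Cxcl5 (1.04, with 1863 bases), Ccl7 (0.89, 801 bases), Ccl2 (0.78, 813 bases) and Cxcl1 (0.70, 953 bases). The lowest were those of Cx3cl1 (-0.88, 3315 bases), Il6st (-0.65, 8678 bases), Tnfaip3 (-0.63, 4422 bases) and Osmr (-0.28, 5491 bases). Length did not order them closely, since Il1r1 with 5819 bases was at 0.54 and Lifr, the longest, at 0.01. The median difference was 0.70 for the 5 members of at most 1500 bases and 0.30 for the 2826 genes of that size, and it was -0.09 for the 9 members of at least 4000 bases against -0.27 for 3613 genes.

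**Figure D3:**
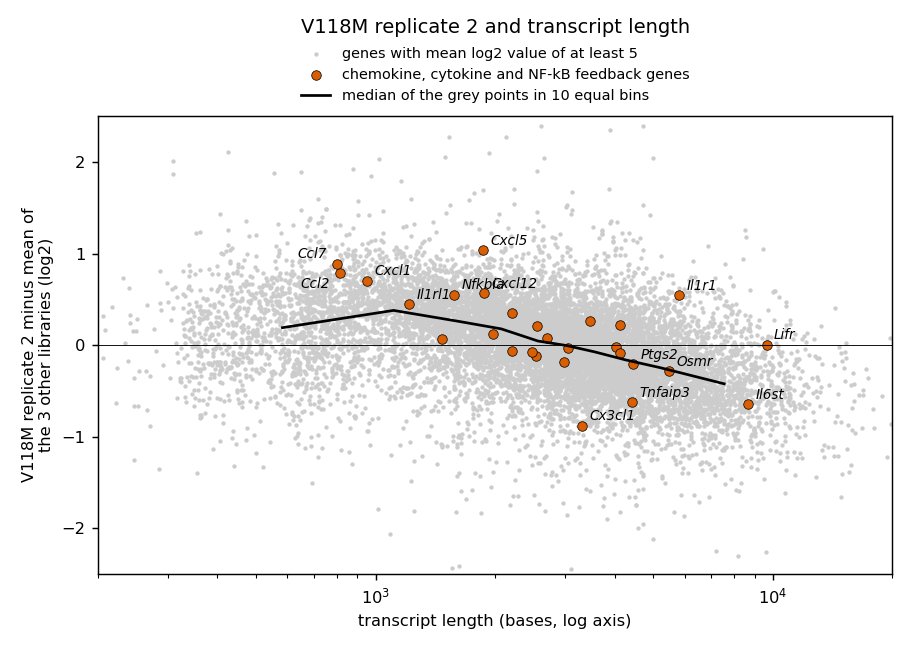
Difference of V118M replicate 2 from the mean of the 3 other libraries (log2, vertical axis) against transcript length (bases, log axis) for the 28 members (orange) and all genes (grey; 39 lie outside the axes) whose log2 values averaged 5 or more. The line joins medians of the grey points in 10 bins of equal size; the line falls from positive to negative values, Cxcl5 is the highest and Cx3cl1 the lowest of the members, and Il1r1 lies above the line.

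Each library was then adjusted by subtracting a smooth trend of its deviations on transcript length. The excess of V118M replicate 2 over the wild-type mean went from 0.77 to 0.45 for Ccl2, from 0.81 to 0.50 for Ccl7, from 0.59 to 0.26 for Cxcl1 and from 0.55 to 0.29 for Nfkbia. The deficit of Il6st went from -0.60 to -0.18. These differences were thus smaller once the trend was subtracted. The log2 fold change over both V118M libraries went from 0.36 to 0.23 for Ccl2, from 0.29 to 0.16 for Ccl7 and from 0.12 to -0.02 for Cxcl1. Members in which V118M replicate 2 exceeded each other library by at least 0.5 numbered 8 before the adjustment, or 20.5% against 12.6% of all genes tested, and 4 after it, or 10.3% against 7.57%. The 4 were Cxcl5, Ccl8, Ccl5 and Cxcl10.

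Of the genes higher in both V118M libraries, Il6, Cxcl12, Il1r1 and Il1rl1 moved by similar amounts, upward for Il1r1 and downward for the others named. The excess of V118M replicate 2 over the wild-type mean went from 1.46 to 1.12 for Il6, from 0.88 to 0.68 for Cxcl12, from 0.79 to 1.07 for Il1r1 and from 0.71 to 0.38 for Il1rl1. The log2 fold change went from 1.23 to 1.09 for Il6, from 0.90 to 0.82 for Cxcl12, from 0.76 to 0.88 for Il1r1 and from 0.74 to 0.61 for Il1rl1. The transcripts listed for the receptor pair differ in length, with 5819 bases for Il1r1 and 1216 for Il1rl1. After the adjustment the groups did not overlap in 14 members as higher, against 18.7% of all genes, and in 6 as lower, against 17.0%.

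**Figure D4:**
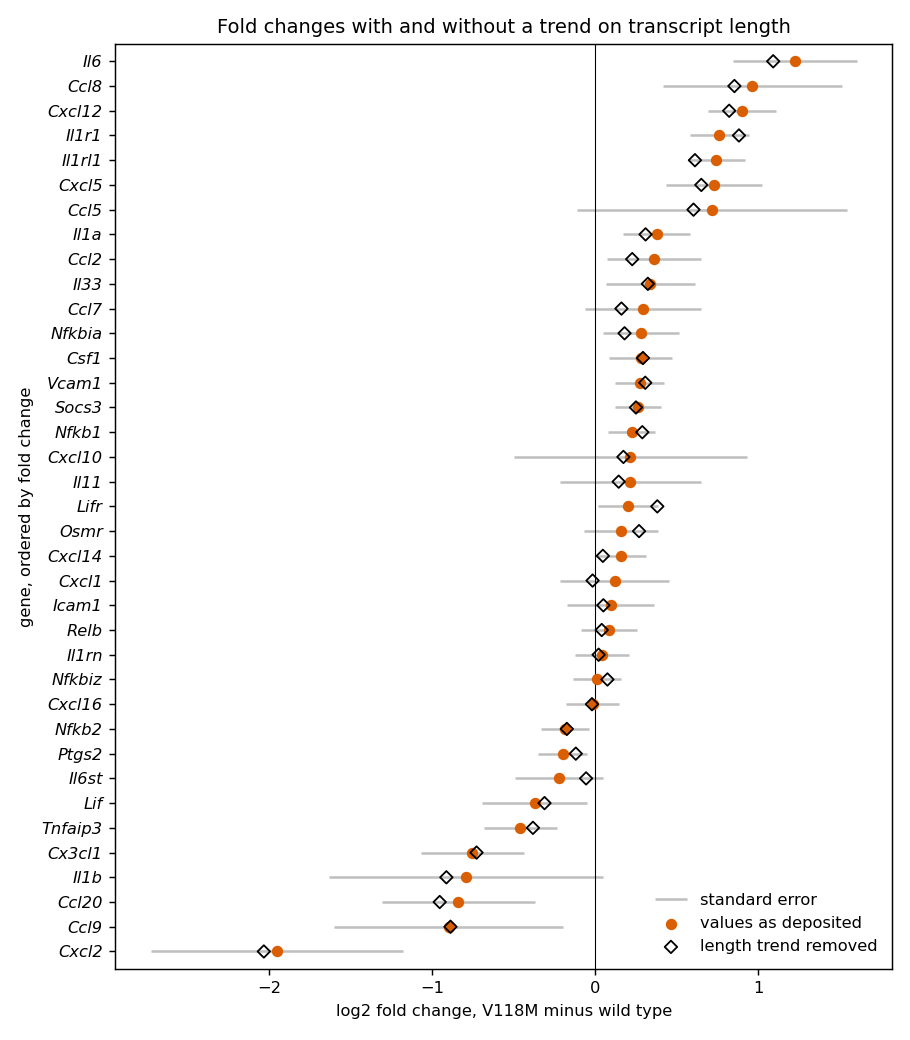
Log2 fold change, V118M minus wild type (horizontal axis), for 37 genes in order of size, with the standard error as a grey line. Filled points are from the deposited values and open diamonds from values with the length trend removed; Il6, Cxcl12, Il1r1 and Il1rl1 stay between 0.61 and 1.23 in both, and Cxcl1 is near 0 in both.

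Other genes of these pathways came from lists that exclude the members. Of 38 genes of NF-kB signalling 15 were higher, 22 lower and 1 equal, with a median log2 fold change of -0.05. None passed over all genes tested in limma, and 1 was at an unadjusted p under 0.05, against 4.01% of all genes tested. That gene was Bcl3, a nuclear co-regulator of NF-kB and a Stat3 target, at 97 and 103 in wild type and at 196 and 148 in V118M (log2 fold change 0.76, SE 0.22). The other genes named by p-value were Ikbkg, the regulatory subunit of the kinase that acts on the inhibitors, at 1378 and 1288 against 1160 and 1037, the interleukin 1 receptor kinase Irak2 at 258 and 312 against 233 and 214, and the ubiquitin ligase Birc3 at 152 and 158 against 192 and 194. Rela, the main transactivating subunit, was at 1734 and 1742 against 1708 and 1582.

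Of 19 genes of Il6-family signalling 17 could be tested, with 7 higher, 10 lower and a median of -0.06. None passed over all genes tested in limma, and 2 were at an unadjusted p under 0.05, against 4.01% of all genes tested. These were Bcl3, which this list shares, and Socs1. Socs1, a feedback inhibitor of JAK kinases that interferon also induces, was at 32 and 24 against 52 and 79 (log2 fold change 1.18, SE 0.35). Socs2 was at 335 and 396 against 430 and 760, and Pias3 was at 602 and 563 against 491 and 412. Stat3 itself was at 3665 and 3922 against 3664 and 3402, and Il6ra, the binding chain for Il6, at 420 and 406 against 375 and 408.

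Of 17 chemokine receptors and scavengers 15 were found and 10 could be tested, with 7 higher and 3 lower. None passed over all genes tested in limma, and 3 were at an unadjusted p under 0.05, against 4.01% of all genes tested. Ccr2, the monocyte receptor for Ccl2 and Ccl7, was at 19 and 12 in wild type and at 61 and 61 in V118M (log2 fold change 1.94, SE 0.36), with an adjusted p of 0.781 in limma. Ackr1, a chemokine scavenger, was at 84 and 87 against 117 and 173. Cxcr2, the receptor for Cxcl1, Cxcl2 and Cxcl5, was at 1 and 1 against 6 and 5, a difference of a few units. Ccr1 was at 18 and 17 against 10 and 0. The receptors Cx3cr1 and Ccr6, partners of Cx3cl1 and Ccl20, were listed at 0 in every library.

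Markers of cell types that make or answer these factors were read beside them. The 14 macrophage and leukocyte markers summed to 1120 and 927 in wild type and to 702 and 747 in V118M, with 3 tested markers higher and 10 lower. Ptprc was at 165 and 58 against 30 and 0, and Adgre1, a defining macrophage gene, at 18 and 2 against 0 and 6. Of these markers 4 were listed at 0 in wild-type replicate 2, 6 in V118M replicate 1 and 2 in V118M replicate 2, and none in wild-type replicate 1. Tyrobp was at 13 and 0 against 0 and 6, and C1qb at 20 and 0 against 0 and 3. The 3 markers that were higher on the log2 scale were Itgam, Csf1r and Fcgr1, and their groups overlapped. Itgam was at 251 and 428 against 366 and 330, Csf1r at 58 and 20 against 26 and 46, and Fcgr1 at 2 and 0 against 0 and 8. Ccr2 was higher in V118M while Ptprc was lower. The 8 epithelial and keratinocyte markers summed to 18205 and 17849 against 20143 and 22414, with 3 higher and 5 lower. The groups were apart in the 3 that were higher, the keratin genes Krt5 (246 and 199 against 664 and 731), Krt14 and Krt17. They were also apart in 2 of those that were lower, Cdh1 (3492 and 3492 against 3425 and 2822) and Krt8 (6702 and 6490 against 6332 and 5972). Over all genes tested, groups were apart as higher in 13.2% and as lower in 14.8%. These shares are the background for this list and the lists below. The 12 fibroblast markers summed to 146052 and 154495 against 149231 and 130596, and none was at 0. These sums include Col3a1, at 61186 and 61186 against 61186 and 29496, where 61186 is the highest value of the table. Of the 12 markers 7 were higher, 3 lower and 2 equal. The 2 equal ones held repeated values, Col1a2 at 29492 in all 4 libraries and Vim at 19024 and 29480 in each group. The groups were apart in 3 markers, all higher, Postn (1263 and 1098 against 1889 and 1744), Pdgfra (302 and 248 against 460 and 352) and Lum. The 5 endothelial markers summed to 1168 and 1217 against 1095 and 971. Most of each sum was Tek alone, at 1103 and 1172 against 1054 and 933. Emcn was listed at 0 in every library, and the groups were apart in each of the others, with Cdh5 (26 and 16 against 9 and 6), Kdr and Tek lower and Pecam1 (17 and 14 against 18 and 24) higher. The part of these cell types in the values of the chemokines and receptors was not tested.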

How the data were processed

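RNA from 4 libraries was measured, 2 per group. TRIzol extraction and a TruSeq Nano RNA kit are named per the labels' protocols, and mm10, FastQC, RSEM, Bowtie2 and DESeq2 per the submitters' processing notes, with no role or version. The deposited values are a score per gene in whole numbers, normalized between libraries by a method that no label names. The sorted columns were identical at 76.7% of ranks, as after quantile normalization, so they were not treated as counts, the depth is unknown, and no counting interval is given. Ties compress differences among the highest genes.

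Values were analysed as log2(value + 1), which understates changes of low genes, and genes reaching 1 in at least 2 libraries were kept. limma 3.58.1 in R 4.3.3 was fitted to 19547 genes with group as the only term and the trend and robust options. Its two-sided p-values were adjusted by Benjamini and Hochberg's method over all of them. The fit was tested on simulated data, with results not given here, so its error rate on these values is not shown. Fold changes are V118M minus wild type. The members and gene lists were chosen with earlier results of these data known. All members are named with their values; fold changes are given by rule for those at an unadjusted p under 0.05, or with groups apart and an absolute log2 fold change of at least 0.5, and for others chosen after their values were seen. Non-members named are the up to 4 of lowest p per list and others chosen after their values were seen. Genes and transcript lengths come from GENCODE M21 of GRCm38, the assembly also called mm10, where 22304 transcripts matched; the length trend was a loess of span 0.3. Alternatives were other pseudocounts and filters, a replicate block, the length trend removed, array weights, and each library left out. Exons of 8 members overlap another gene (Cxcl10, Cxcl16, Il1a, Il1b, Csf2, Nfkb2, Icam1 and Vcam1), and no source used here gives the use of strand in counting. Reads of Cxcl1 and Cxcl2 could be split between these related genes.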

Additional observations from a re-analysis of the deposited data

How the results depend on the processing

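The rule gave 9 members with a fold, Il6, Cxcl2, Cxcl5, Cxcl12, Ccl8, Ccl20, Cx3cl1, Il1r1 and Il1rl1. They kept their direction in all 107 values from the 12 alternatives. The groups of each were apart to begin with, so only removal of the length trend could have reversed a direction. None of the 9 passed over all genes tested in limma in the alternatives that kept every library. The lowest adjusted p there was 0.243 in limma, for Cxcl12 with no filter on low values. The number of members passing over all genes was 0 in every alternative. Replicate numbers are shared by the groups, but nothing in the labels says that they mark a shared culture; deviations of same-numbered libraries correlated at 0.303 across genes. With the replicate block 3 genes were called over all genes tested, and with the replicate block and the length trend removed 2, none of them a member. When each library was left out in turn, the number of genes called over all genes was 0, the number of members at an unadjusted p under 0.05 ranged from 0 to 15 (that of all genes from 221 to 5096), and the median log2 fold change of the members from 0.101 to 0.208. The number of members with groups apart ranged from 23 to 33, because 3 libraries are easier to separate than 4. The share of all genes with groups apart was not counted in these fits. This range therefore cannot show whether the members exceed the rest of the table. In these fits the lone library of a group is assumed to vary like the others. Low values, such as those of Cxcl2, Cxcl10, Ccl5, Il1b and Tnf, limit what can be read from a difference.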
